A study of Homo sapiens with 6 samples.

Results

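A set of 10 genes of amino acid and folate metabolism was examined after silencing of Mic60, the mitochondrial inner membrane protein encoded by IMMT. The set was given by gene name: PHGDH, PSAT1 and PSPH of serine synthesis, SHMT1, SHMT2, MTHFD2 and MTHFD1L of one-carbon metabolism, ASNS of asparagine synthesis, and ALDH18A1 and PYCR1 of proline synthesis. All 10 were found among the 57736 Ensembl genes of the deposited count table. The cells were PC3, an established human prostate cancer line, and carried either a control siRNA (siCTRL, n = 3 libraries) or an siRNA against Mic60 (siMic60, n = 3 libraries). The same groups are called Mic60 WT and Mic60 KO in the genotype labels, and the siRNA names are used here. The model has limits. It is 1 cell line with 1 Mic60-directed group, and neither the time after transfection nor how the replicates were cultured is given in the sources used here, so the p-values speak only of the spread among these libraries, and that spread may be technical.

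Cells make serine from a glycolytic intermediate in consecutive steps by PHGDH, PSAT1 and PSPH. Serine hydroxymethyltransferase then splits serine into glycine and a one-carbon unit carried on folate, in mitochondria (SHMT2) and in the cytosol (SHMT1). Mitochondrial enzymes oxidize that unit (MTHFD2) and release it as formate (MTHFD1L), which the cytosol uses for purines and thymidylate. ASNS makes asparagine from aspartate and glutamine, and ALDH18A1 and PYCR1 make proline from glutamate in mitochondria. Several of these genes are known targets of ATF4, the transcription factor of the integrated stress response, and the whole set is often discussed together as the metabolic arm of the response to mitochondrial damage.

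Libraries held 6644495 to 8779877 counts of QuantSeq 3′ mRNA tags, a kit that reads each transcript near its end. Levels are CPM (counts scaled to a common library size, after TMM scaling), with no division by gene length, because 1 tag stands for 1 transcript. A gene was called changed at an adjusted p under 0.05 from edgeR's quasi-likelihood test over all 14653 genes tested. IMMT fell from 88.9 to 91.2 CPM in siCTRL to 5.83 to 8.53 CPM in siMic60 libraries (adjusted p = 4.29e-10), which left 8.12% of its level. Of the markers of this line, KRT8, KRT18, EPCAM, VIM, CD44 and NT5E together held 1233 to 1382 CPM in siCTRL and 1536 to 1812 CPM in siMic60 libraries, where 4 of these 6 rose and 2 fell. Of 6 markers known to be low or absent in this line, KLK3 had no count, and the sum of all 6 was 20.3 to 26.2 CPM in siCTRL and 11.5 to 16.8 CPM in siMic60 libraries. A list of 5 leukocyte markers summed to at most 2.57 CPM in any library, with CD3E at 0. Of 6 fibroblast and endothelial markers, PECAM1 was not matched, DCN, CDH5 and VWF were at 0 and COL3A1 was at 0.876 to 2.81 CPM, but COL1A1 was at 277 to 370 CPM in siCTRL and 45.8 to 64.9 CPM in siMic60 libraries (adjusted p = 2.72e-08). The part of COL1A1-expressing cells in the results was not tested. In RNA from a whole culture, fewer cells that express a gene and less RNA per cell cannot be told apart.

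Of the 10 genes, SHMT2, MTHFD2 and PYCR1 rose, PSPH fell and the other 6 did not pass the test. Among all genes tested, 17.7% were called higher and 17.9% lower, 35.5% in all, so 4 of 10 is close to the background. The median log2 fold change was 0.29 for the 10 genes and 0.0022 for all genes tested. The groups of libraries did not overlap for 5 of the 10 genes, against 47.9% of all genes tested. The genes that rose encode mitochondrial enzymes, and the serine pathway, from which SHMT2 takes its substrate, held none that rose.

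**Figure D1:**
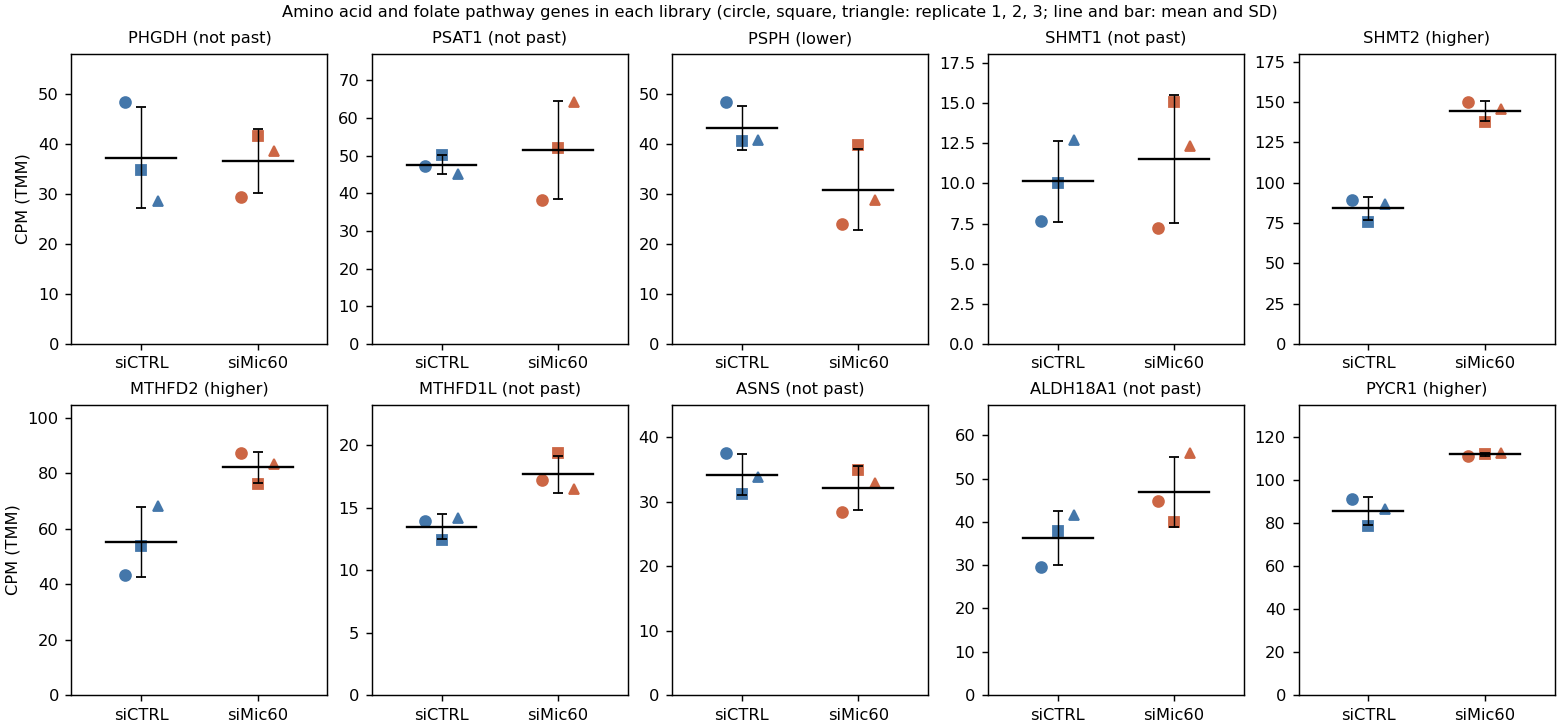
Level (CPM after TMM scaling, vertical axis from 0) of each of the 10 genes in the 3 siCTRL (blue) and 3 siMic60 (red) libraries, with the mean and SD. SHMT2, MTHFD2 and PYCR1 are higher in every siMic60 library, PSPH is lower in every siMic60 library, and the groups of PHGDH, PSAT1, SHMT1, ASNS and ALDH18A1 overlap.

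SHMT2 (ENSG00000182199), which forms glycine and the folate-bound one-carbon unit in mitochondria, showed the largest change of the 10. It was at 89.4, 75.8 and 86.9 CPM in siCTRL and 149.8, 138 and 146 CPM in siMic60 libraries. Every siMic60 library lay far above every siCTRL library, and the spread within each group was small. The increase was 1.72-fold (95% interval 1.44 to 2.04, log2 fold change 0.78, standard error 0.12, adjusted p = 1.26e-04).

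MTHFD2 (ENSG00000065911), the mitochondrial dehydrogenase and cyclohydrolase that acts on the unit made by SHMT2, rose 1.49-fold. Its level was 43.4, 53.7 and 68.4 CPM in siCTRL and 87.2, 76.2 and 83.5 CPM in siMic60 libraries. The control libraries were the more scattered ones, and the highest of them stayed below the lowest siMic60 library. The 95% interval of the fold was 1.19 to 1.87 (adjusted p = 0.0081). Genes whose reads could be confused with those of MTHFD2 held few counts after assignment. Its processed copy MTHFD2P1 had 34 in siCTRL and 30 in siMic60 libraries in all. SLC4A5, which shares exonic bases on the opposite strand, had 72 and 78. How many shared reads were credited to MTHFD2 cannot be told from these counts.

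MTHFD1L (ENSG00000120254), which releases formate in mitochondria, was at 13.9, 12.4 and 14.2 CPM in siCTRL and 17.2, 19.3 and 16.5 CPM in siMic60 libraries. These groups did not overlap either, but at this level of 99 to 158 counts per library the fold of 1.31 (95% interval 1.02 to 1.67) did not pass after adjustment (adjusted p = 0.0813). SHMT1 (ENSG00000176974), the cytosolic counterpart of SHMT2, had 47 to 123 counts per library. It was at 7.67, 10.01 and 12.7 CPM in siCTRL and 7.21, 15.1 and 12.3 CPM in siMic60 libraries, so that both groups covered much the same range. Its fold was 1.15, with a wide 95% interval of 0.781 to 1.69 (adjusted p = 0.589).

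The balance between these paired enzymes was compared as a log2 ratio of CPM within each library, so that a gene-specific capture rate common to all libraries does not enter the comparison between groups. The SHMT2 to SHMT1 ratio was 3.50, 2.89 and 2.75 in siCTRL and 4.33, 3.17 and 3.54 in siMic60 libraries. The means differed by 0.63, with overlap between the groups (p = 0.2 in an exact two-sided permutation test, which cannot go below 0.1 with 3 libraries a group). Without siMic60 replicate 1 the difference was 0.31. SHMT2 supplied 87.3% to 92.1% of the tags of this pair in siCTRL and 90.1% to 95.4% in siMic60 libraries.
MTHFD1 (ENSG00000100714), the cytosolic enzyme that takes up formate into folate, was at 111 ± 1.27 CPM in control and 165 ± 28.7 CPM in silenced cells (SD, n = 3 each) and rose 1.48-fold (adjusted p = 0.00349). The MTHFD2 to MTHFD1 log2 ratio was −1.35, −1.03 and −0.71 in siCTRL and −0.77, −1.37 and −0.82 in siMic60 libraries. The groups covered the same range (exact permutation p = 1, two-sided). The difference of 0.044 took the other sign without siCTRL replicate 1 (−0.12), siMic60 replicate 1 (−0.064) or siMic60 replicate 3 (−0.040). MTHFD2L, a second mitochondrial isoenzyme of MTHFD2, was at 58.3 ± 1.69 and 53.7 ± 5.93 CPM (SD, n = 3 each; fold 0.923, 95% interval 0.769 to 1.11, adjusted p = 0.506).

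**Figure D2:**
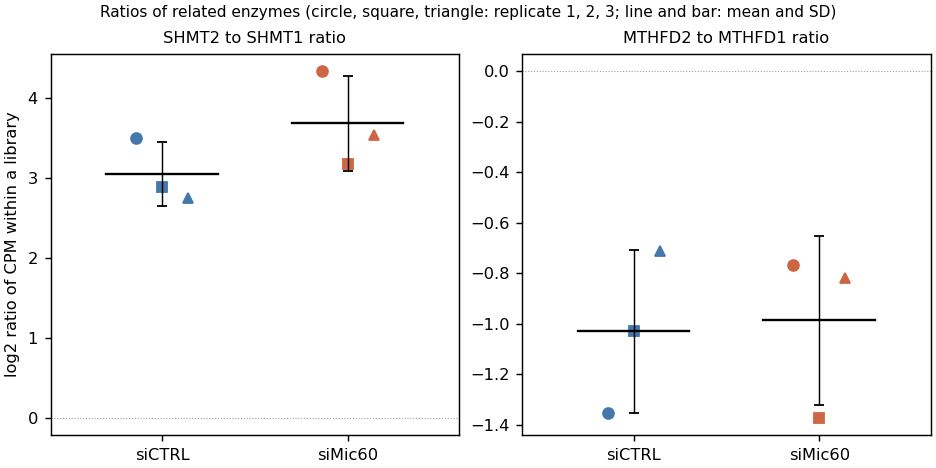
Log2 ratio of CPM within a library (vertical axis, each panel with its own scale) for SHMT2 to SHMT1 and MTHFD2 to MTHFD1 in the 3 siCTRL (blue) and 3 siMic60 (red) libraries, with mean and SD. The groups overlap in both panels, with means of 3.05 and 3.68 for SHMT2 to SHMT1 and −1.03 and −0.99 for MTHFD2 to MTHFD1.

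The first enzymes of serine synthesis did not pass the test. PHGDH (ENSG00000092621), which commits the glycolytic intermediate to serine, was at 48.3, 34.8 and 28.6 CPM in siCTRL and 29.3, 41.6 and 38.6 CPM in siMic60 libraries. The highest and the lowest value both belonged to siCTRL libraries, and the fold was 0.983 (95% interval 0.748 to 1.29, adjusted p = 0.936). PSAT1 (ENSG00000135069), the transaminase of the second step, was at 47.2, 50.2 and 45.1 CPM in siCTRL and 38.2, 51.9 and 64.1 CPM in siMic60 libraries. Its siCTRL values fell inside the wider range of the siMic60 values, with a fold of 1.09 (95% interval 0.855 to 1.38, adjusted p = 0.607).

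PSPH (ENSG00000146733), the phosphatase that completes serine, was the 1 gene of the set that fell. It was at 48.3, 40.6 and 40.7 CPM in siCTRL and 23.9, 39.8 and 28.8 CPM in siMic60 libraries. The groups did not overlap, but siMic60 replicate 2 came within 1 CPM of the controls. Silenced cells kept 71.6% of the control level (95% interval of the fold 0.557 to 0.921, adjusted p = 0.0388). The call was lost without any 1 of 5 libraries: siCTRL replicate 1 (adjusted p = 0.111), siCTRL replicate 2 (0.0603), siCTRL replicate 3 (0.0521), siMic60 replicate 1 (0.166) or siMic60 replicate 3 (0.126). Its pseudogene copy PSPHP1 held 3 counts in all siCTRL libraries together and 0 in siMic60 ones.

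ASNS (ENSG00000070669), asparagine synthetase, was at 37.5, 31.1 and 33.9 CPM in siCTRL and 28.4, 35.0 and 33.0 CPM in siMic60 libraries. The ranges were nearly the same, and the fold of 0.941 had a 95% interval of 0.766 to 1.16 (adjusted p = 0.661). The ASNS promoter holds a well-known C/EBP-ATF response element that ATF4 binds, and MTHFD1L has letters of the same pattern near its starts. These sequences are shown because ATF4 mRNA itself rose in the same libraries. They are given 5′ to 3′ on the strand of the gene from RefSeq (GRCh38.p14), with the letters that match TGATGNAA in capitals.
ASNS, chr7:97872443-97872502, minus strand: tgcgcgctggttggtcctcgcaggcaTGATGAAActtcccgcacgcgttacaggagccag
MTHFD1L, chr6:150866346-150866375, plus strand: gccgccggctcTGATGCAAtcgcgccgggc
The match begins 68 bases before the ASNS start, and 129 or 90 bases before 2 of the MTHFD1L starts (it lies 24 bases after another). The windows run from 250 bases before to 50 bases after a start, and both strands were searched. Of the 10 genes, 7 had a window and 2 held a match, ASNS and MTHFD1L. The pattern was known from the ASNS promoter, so the ASNS match was fixed in advance. Of all 27305 genes with a window, 4.46% held a match, and the count of 2 cannot be weighed against that share. PHGDH, PSAT1, SHMT1, MTHFD2 and ALDH18A1 held none of these letters in their windows. PSPH, SHMT2 and PYCR1 had no entry. A match of letters is a description only.

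ATF4 (ENSG00000128272) was at 150.4, 116 and 109 CPM in siCTRL and 232, 299 and 238 CPM in siMic60 libraries. All 3 siMic60 libraries were above all 3 controls, and the increase was 2.05-fold (95% interval 1.65 to 2.53, adjusted p = 6.48e-05). Of 8 transcription factors known to act on these genes, 6 rose and none fell, among them ATF3 (2.16-fold, adjusted p = 4.67e-05) and ATF5 (2.11-fold, adjusted p = 4.65e-05). Of 14 other targets of ATF4, 13 were tested, 7 rose and none fell (CEBPB stands on both lists). Among all genes tested, 17.7% were called higher and 17.9% lower. Both lists were chosen with earlier results of these data known. SLC7A5, a subunit of the transporter for large neutral amino acids, rose 3.74-fold (adjusted p = 5.96e-07), SESN2, a stress-induced inhibitor of mTORC1, rose 2.06-fold (adjusted p = 3.86e-05), and SLC3A2, the partner chain of SLC7A5, rose 1.82-fold (adjusted p = 5.32e-05). These 3 are the targets with the smallest adjusted p. Of the 6 targets that did not pass, VLDLR had a fold of 0.415 at only 4 to 40 counts per library. The others had folds of 0.907 to 1.23, and the folds of PHGDH, PSAT1 and ASNS lay within that range. The difference in fold between these genes and ATF4 was not tested.

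**Figure D3:**
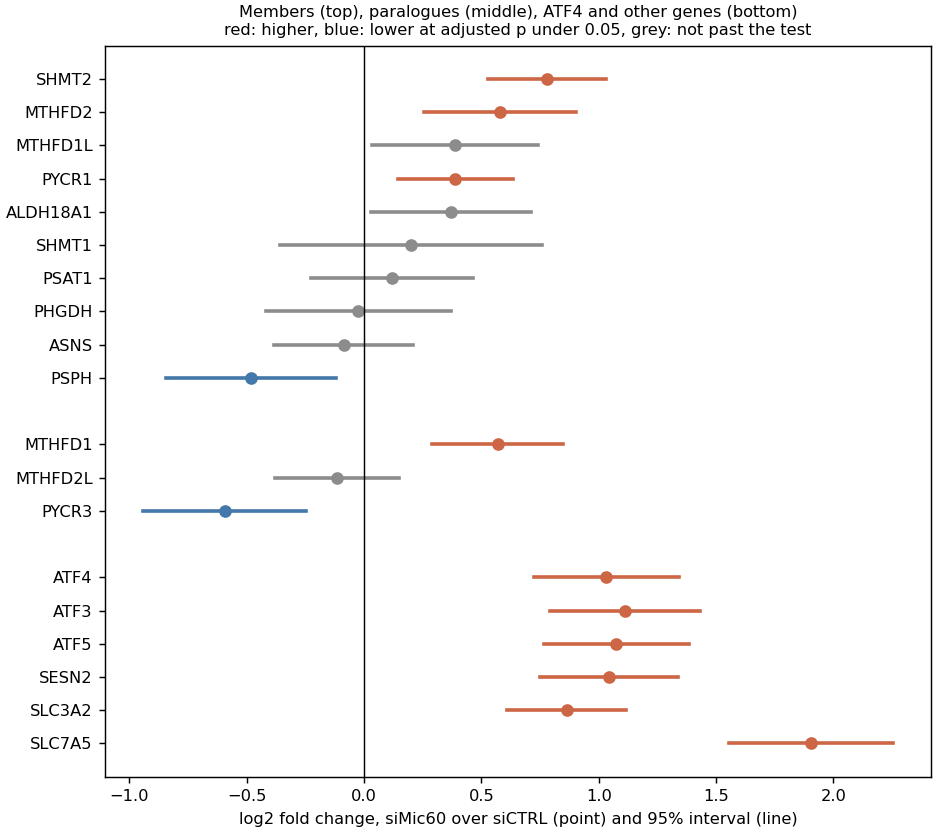
Log2 fold change of siMic60 over siCTRL cells (horizontal axis, n = 3 libraries each) with its 95% interval for the 10 genes (top), their related isoenzymes (middle) and ATF4 with 5 genes that were called (bottom). Red marks genes called higher, blue genes called lower and grey genes that did not pass the test. The bottom genes were taken for their small adjusted p, and their folds run from 1.82 for SLC3A2 to 3.74 for SLC7A5.

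Both enzymes of the mitochondrial proline route were higher on average, and 1 of them passed the test. PYCR1 (ENSG00000183010), the reductase of the last step, was at 91.2, 78.5 and 86.4 CPM in siCTRL and 111, 112 and 112 CPM in siMic60 libraries. The siMic60 libraries were almost identical and all above the controls. The increase was 1.31-fold (95% interval 1.10 to 1.55, adjusted p = 0.0159), and without siCTRL replicate 2 it no longer passed (adjusted p = 0.0897). ALDH18A1 (ENSG00000059573), which starts proline synthesis from glutamate, was at 29.5, 37.8 and 41.7 CPM in siCTRL and 44.9, 40.0 and 55.8 CPM in siMic60 libraries. One siMic60 library lay inside the control range, and the fold of 1.29 (95% interval 1.02 to 1.64) did not pass (adjusted p = 0.0843), though it did with no minimum count (adjusted p = 0.0470) and without siMic60 replicate 2 (adjusted p = 0.0479).

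PYCR3 (ENSG00000104524), a cytosolic isoenzyme of PYCR1, went the other way. It was at 26.8, 28.9 and 31.7 CPM in siCTRL and 16.7, 23.6 and 17.4 CPM in siMic60 libraries. Every siMic60 library lay below every siCTRL library, and the level fell to 0.662 of the control (95% interval 0.520 to 0.843, adjusted p = 0.0106).

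Among themselves, the 10 genes spanned mean levels of 10.1 to 85.4 CPM in siCTRL and 11.5 to 144 CPM in siMic60 cells, in CPM of 3′ tags. In siCTRL cells PYCR1 (85.4 ± 6.39 CPM) and SHMT2 (84.0 ± 7.25) were highest and overlapped. MTHFD2 (55.2 ± 12.6), PSAT1 (47.5 ± 2.53), PSPH (43.2 ± 4.41), PHGDH (37.2 ± 10.1), ALDH18A1 (36.3 ± 6.22) and ASNS (34.2 ± 3.2) followed, each overlapping the next. MTHFD1L (13.5 ± 0.967) and SHMT1 (10.1 ± 2.52) were lowest and overlapped (SD, n = 3 throughout). In siMic60 cells SHMT2 (144 ± 6.26 CPM), PYCR1 (112 ± 0.544) and MTHFD2 (82.3 ± 5.59) each stood apart from the next, and PSPH (30.8 ± 8.12) came after PSAT1 (51.4 ± 13.0), ALDH18A1 (46.9 ± 8.08), PHGDH (36.5 ± 6.43) and ASNS (32.1 ± 3.4). The libraries differed in more than their group. Replicate 1 was the lowest of the 3 siMic60 libraries for 6 of the 10 genes (PHGDH, PSAT1, PSPH, SHMT1, ASNS and PYCR1) and the highest for SHMT2 and MTHFD2, and it was also the shallowest library, with 6644495 counts.

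The other genes of the same pathways moved in both directions. Of 96 such genes in 7 lists, 81 were tested, 23 rose and 18 fell, and the median log2 fold change was 0.032. The shares over all genes tested were 17.7% higher and 17.9% lower. The carriers SFXN1 and SLC25A32, which feed mitochondrial folate metabolism, were among those that rose. Relatives of SFXN1 went both ways. SFXN3 fell from a mean of 64.7 CPM in control to 35.9 CPM in silenced cells. SFXN2 rose 3.62-fold from a low mean of 1.23 CPM in control to 4.49 CPM in silenced cells (adjusted p = 0.00149). SFXN1, which imports serine into mitochondria, was at 27.9 ± 3.55 CPM in control and 66.8 ± 11.7 CPM in silenced cells (SD, n = 3 each), a 2.39-fold increase (adjusted p = 2.00e-05). SLC25A32, the mitochondrial folate carrier, was at 43.5 ± 5.37 and 75.4 ± 4.83 CPM (SD, n = 3 each) and rose 1.73-fold (adjusted p = 2.36e-04).

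Of 10 other mitochondrial folate and glycine cleavage genes, 7 were tested, SLC25A32 rose and 3 fell. DLD, the dehydrogenase subunit that the glycine cleavage system shares with other mitochondrial complexes, fell to 0.675 of its control level (adjusted p = 0.00274), and MTFMT, which uses a folate one-carbon unit to formylate the mitochondrial initiator tRNA, fell to 0.618 (adjusted p = 0.00553). GLDC, the decarboxylase of glycine cleavage, was too low to be tested. Of 13 other cytosolic folate genes, 11 were tested, 5 rose and 2 fell. FPGS, which adds the glutamate tail that keeps folates in the cell, rose 2.28-fold (adjusted p = 1.67e-04), and GGH, which removes that tail, rose 1.82-fold (adjusted p = 3.39e-04).

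Of 13 genes of purine synthesis, a main use of formate, all were tested, 4 rose and 3 fell. PPAT, the first committed enzyme, was at 21.2 ± 1.61 CPM in control and 46.1 ± 3.82 CPM in silenced cells (SD, n = 3 each) and rose 2.17-fold (adjusted p = 1.87e-05). GART, which uses a folate one-carbon unit, rose 1.77-fold (adjusted p = 6.75e-04), while ADSS1, an adenylosuccinate synthase, fell to 0.241 of a low control level of 5.85 ± 0.41 CPM (SD, n = 3; adjusted p = 2.41e-04). Of 18 genes of the methionine cycle and transsulfuration, 15 were tested, 6 rose and 1 fell. CTH, which makes cysteine from the product of serine and homocysteine, rose 3.11-fold from 3.81 ± 0.74 CPM (SD, n = 3; adjusted p = 3.86e-04), and NNMT, a methyltransferase that consumes S-adenosylmethionine, fell to 0.452 (adjusted p = 3.61e-04).

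Of 17 genes of serine and glycine transport and use, 15 were tested, 4 rose and 3 fell. SFXN1 and its relative SFXN2 were among those that rose. SFXN3, another relative, fell to 0.556 (adjusted p = 9.22e-05), and SPTLC3, a subunit of the enzyme that uses serine for sphingolipids, fell to 0.382 (adjusted p = 2.45e-04). Of 12 neighbours of aspartate and asparagine, 10 were tested and 2 were called. GPT2, the mitochondrial alanine transaminase, fell to 0.525 (adjusted p = 1.30e-04) and CAD, which uses aspartate for pyrimidines, rose by 49.8% (adjusted p = 0.0085). Of 13 other genes of proline and ornithine, 10 were tested, 2 rose and 5 fell. Both that rose, P4HA1 (higher by 66.8%, adjusted p = 0.00111) and P4HA2 (higher by 49.9%, adjusted p = 0.00277), are subunits of collagen prolyl hydroxylases, and PRODH, which breaks down proline, was too low to be tested.

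**Figure D4:**
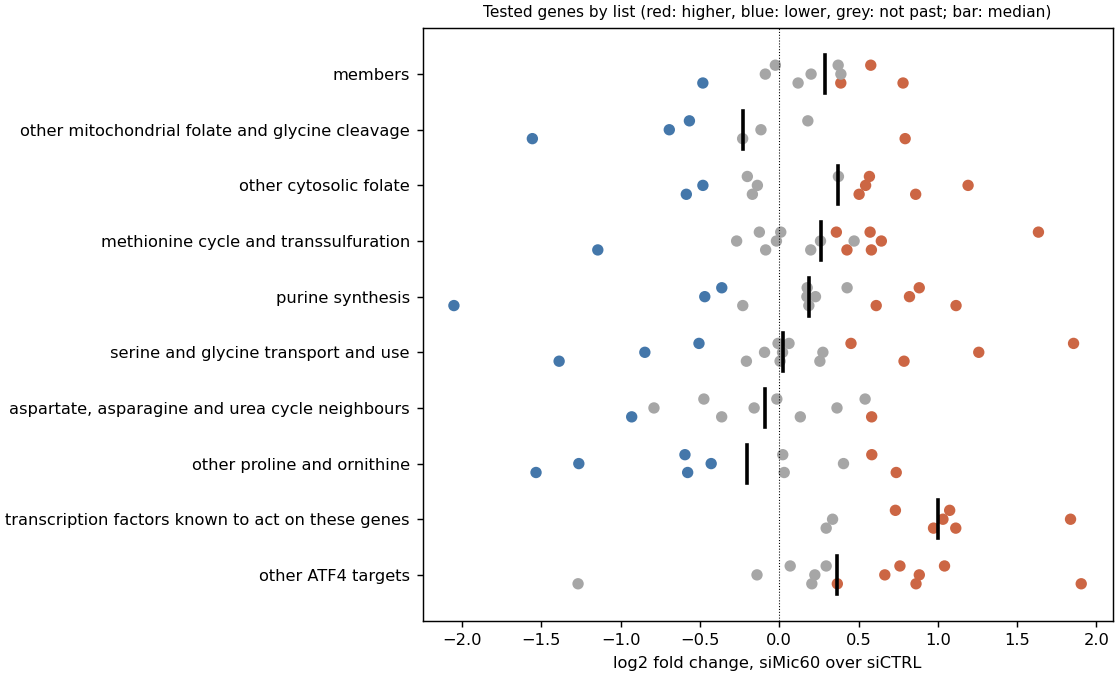
Log2 fold change of siMic60 over siCTRL cells (horizontal axis, n = 3 libraries each) for each tested gene of the 10 genes (top row), 7 lists of other pathway genes, 8 transcription factors and the other ATF4 targets, with a bar at each median. Red marks genes called higher, blue lower and grey not passing the test, and red and blue occur in each of the pathway lists, while the bottom 2 rows hold no blue.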

How the data were processed

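QuantSeq 3′ libraries of 6 PC3 samples were analysed from the counts per Ensembl gene that the authors deposited in 1 table, whole numbers with no normalization. Their processing notes list RSEM 1.2.3 together with DESeq2 and hg19 (GRCh37). RSEM estimates counts, so the values may be rounded estimates. For the aligner, annotation and strand, the setting is not given in the sources used here. Reads of overlapping or antisense genes cannot be told apart. Of 151 listed symbols, 150 were matched. Apart from the promoter stretches of ASNS and MTHFD1L (GRCh38.p14), no gene coordinates are given, since the annotation at hand is of another build than hg19.

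Counts were fitted in R 4.3.3 with edgeR 4.0.16 (TMM, at least 10 counts in 3 of 6 libraries, quasi-likelihood test, Benjamini-Hochberg adjustment). Intervals are 95% and use the degrees of freedom of the fit. Ratios used a prior count of 2 (alternative 5). Other alternatives were DESeq2 1.42.0, limma-trend (limma 3.58.1, prior count 2), DESeq2 size factors, library totals, a replicate block, no minimum or 50 counts, and leaving out each library in turn. The fit was tested on simulated data. Between libraries of a group, chi-square per degree of freedom was 3.54 to 13.5, so none was a repeat of another.

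The genes and lists were chosen with earlier results of these data known. Named are the 10 genes, IMMT, ATF4, MTHFD1, MTHFD2L, PYCR3 and, per list, the 3 called genes with the smallest adjusted p. GLDC, PRODH, SFXN2, VLDLR and the markers were named besides, as were the genes of the closing section, after their values were seen. Some items are not reported here.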

Additional observations from a re-analysis of the deposited data

How the results depend on the processing

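Under DESeq2, limma-trend, DESeq2 size factors, library totals, no minimum count and a minimum of 50 counts, the 10 genes held 3 or 4 called higher and 1 called lower. With each library left out in turn, 2 to 4 were called higher and 0 to 1 lower, because PSPH was lost in 5 of 6 cases. SHMT2 and MTHFD2 passed under every alternative, with log2 fold changes of 0.71 to 0.83 and 0.44 to 0.76. PHGDH, PSAT1, SHMT1 and ASNS passed under none. The number of other pathway genes called was 19 to 23 higher and 13 to 19 lower over all alternatives. The difference in the MTHFD2 to MTHFD1 ratio ran from −0.12 to 0.24 with 1 library left out. Same-numbered libraries did not deviate together (r = −0.102, −0.0311 and 0.0293 across 14653 genes), so the numbers were not taken as pairs. With a replicate block the calls among the 10 genes were 3 higher and 1 lower, and 4766 genes were called in all, against 5204. SHMT1 and MTHFD1L had the fewest counts of the 10 genes, 47 to 158 per library, and their 95% intervals of the fold reached from 0.781 to 1.69 and from 1.02 to 1.67.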

Other observations

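Genes of polyamine synthesis, which draws on ornithine and on S-adenosylmethionine, did not move together. ODC1, ornithine decarboxylase and the most abundant of the pathway genes listed in control cells, was at 1116 ± 23.0 CPM in control and 465 ± 52.7 CPM in silenced cells (SD, n = 3 each) and fell to 0.416 of its control level (adjusted p = 7.69e-07). ARG2, the mitochondrial arginase that supplies ornithine, was at 14.6, 6.25 and 6.16 CPM in siCTRL and 2.91, 2.45 and 3.92 CPM in siMic60 libraries, and fell as well (fold 0.345, edgeR adjusted p = 0.00386), with siCTRL replicate 1 far above the other controls. In the same libraries SMS, spermine synthase, rose 1.49-fold (adjusted p = 0.00122), AMD1, which decarboxylates S-adenosylmethionine, rose 1.56-fold (adjusted p = 0.00187), and SRM, spermidine synthase, rose 1.34-fold (adjusted p = 0.0098).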
